A study of Mus musculus with 18 samples.

Results

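The 7 genes described here carry out antigen presentation by MHC class II in the mouse: the chains H2-Aa, H2-Ab1 and H2-Eb1, the invariant chain Cd74, the peptide-exchange chains H2-DMa and H2-DMb1, and the transactivator Ciita. They were selected by symbol, from 55469 genes in each of 4 deposited tables, after a rise of class II genes at 30 weeks in both mutant lines was already known. For that reason their changes at 30 weeks against WT are described by their values, fold changes and standard errors, with no p. All 7 reached a mean normalized count of at least 10 in every table and were measured in all 18 libraries.

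Total RNA was sequenced from ventral and lateral lobes of the prostate of male mice of strain C56NL/6N (as the labels spell it), at 10 and at 30 weeks of age, with 3 libraries per group. WT mice (ELAC2+/+) were compared with KO mice (ELAC2-/-), in which Cre under the probasin promoter (Pb-Cre) deletes exon 8 of Elac2 in prostate epithelium, and with A537T mice (ELAC2A537T), which carry a point variant homozygously in the whole body. Elac2 encodes the RNase Z that cuts the 3′ end of precursor tRNAs. The probasin promoter is active in prostate epithelium, so that stroma and immune cells of KO mice keep the gene, whereas A537T mice carry the variant in every cell. Each WT library served both mutant lines of its age, so the comparisons with WT within an age share their controls. The mice were age- and littermate-matched and the methods speak of biological replicates, but the labels tie no library to a named animal, so p-values measure the spread between these libraries.

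A class II molecule is a pair of an alpha and a beta chain on the cell surface that shows peptides from engulfed material to CD4+ T cells. Cd74 binds the pair in the endoplasmic reticulum and fills its groove, and the H2-DMa/H2-DMb1 pair helps to exchange the remaining piece of Cd74 for a peptide. Ciita does not bind DNA itself. It is recruited by the RFX, NFY and CREB factors on the short X and Y boxes in front of these genes, and its own level sets how strongly they are transcribed. Dendritic cells, macrophages and B cells express the set constantly, and epithelial cells can switch it on after interferon-gamma.

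Promoter stretches are shown for an alpha and a beta chain, H2-Aa and H2-Eb1. X and Y boxes are known from most class II promoters, and H2-Aa and H2-Eb1 moved together in these libraries. The stretches run 5′ to 3′ on the gene's own strand, from 130 to 21 bases before the start that RefSeq gives for each gene, and capitals mark the matches to the motifs searched. The H2-Aa stretch lies at chr17:34287844-34287953 on the minus strand and the H2-Eb1 stretch at chr17:34305737-34305846 on the plus strand (RefSeq, GRCm38.p6), both upstream of the annotated gene.
H2-Aa: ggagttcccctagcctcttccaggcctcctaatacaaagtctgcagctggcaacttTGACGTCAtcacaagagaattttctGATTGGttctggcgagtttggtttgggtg
H2-Eb1: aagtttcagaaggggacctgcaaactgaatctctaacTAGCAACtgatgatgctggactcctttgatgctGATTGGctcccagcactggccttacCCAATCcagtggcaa

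The motifs, chosen with the sequences in view, were GATTGG for the Y box, TAGNAAC for the X box and TGACGTCA for the X2 box, each searched on both strands. GATTGG stood 49 bases before the start of H2-Aa, 60 before that of H2-Eb1 and 62 before that of H2-DMb1, and H2-Eb1 held a second match on the other strand. TAGNAAC stood 93 bases before the start of H2-Eb1 and 96 before that of H2-DMb1, and TGACGTCA 74 before that of H2-Aa. H2-Aa held no match to TAGNAAC, and H2-Eb1 and H2-DMb1 held none to TGACGTCA. None of the 3 motifs was found in the first of the 2 windows of H2-DMa, and the other held GATTGG alone, 199 bases before the start. Of all 32851 windows of 300 bases, 16.1% held GATTGG, 11.4% TAGNAAC and 1.79% TGACGTCA. Windows of 4 of the 7 members were read, those of H2-Ab1, Cd74 and Ciita not.

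Libraries are named 1AF to 18AF, as the tables name their columns. Recovered reads per library ranged from 6569642 to 11225281. Elac2, the targeted gene, had normalized counts of 119, 111 and 115 in KO at 10 weeks against 124, 142 and 166 in WT, and 98.4, 151 and 122 in KO at 30 weeks against 150, 153 and 194 in WT. All libraries of KO at 10 weeks lay below WT, while at 30 weeks the groups overlapped. At 10 weeks the difference did not pass the test (adjusted p = 0.325, limma), and a gene count includes the exons left in place and the cells without Cre. The point variant of A537T is not visible in a gene count. Several libraries stood apart by tissue content. Seminal vesicle genes summed to between 63740 and 93233 CPM (counts scaled to the total of a library) in KO at 10 weeks, to 45075, 18378 and 10.3 in WT and to at most 1975 in A537T of that age. At 30 weeks they reached at least 66753 in 2 of 3 libraries of each mutant line, but at most 3.33 in WT, 0.669 in the remaining KO library (5AF) and 0.752 in the remaining A537T library (8AF). Skeletal muscle genes summed to between 11736 and 53336 CPM in WT at 10 weeks and to 197 and 208 in 2 libraries of KO at 10 weeks. Sbp, a major secretory gene of the ventral lobe, was at 38.7 CPM in the KO library 15AF, against a median of 58191 over the 18 libraries.

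The 5 H2 genes lie within the MHC region of chromosome 17: H2-DMa at chr17:34119541-34139101, H2-DMb1 at chr17:34153072-34160230, H2-Ab1 at chr17:34257689-34269419 and H2-Eb1 at chr17:34305867-34316674 on the plus strand, and H2-Aa at chr17:34282744-34287823 on the minus strand. Ciita lies at chr16:10480059-10528418 on the plus strand (GRCm38, GENCODE vM21). Within the set, levels were compared per length, as CPM per kilobase of merged exons, on 1 scale for the 18 libraries. In WT at 30 weeks Cd74 was highest at 26.9 ± 3.27 (SD, n = 3), followed by H2-Eb1 at 8.51 ± 0.932, H2-Aa at 7.26 ± 0.652 and H2-Ab1 at 7.18 ± 0.259. H2-DMb1 at 2.72 ± 0.565 and H2-DMa at 1.62 ± 0.239 came below these, and Ciita was lowest at 0.287 ± 0.134. The 3 surface chains overlapped in their spread, while Cd74 and Ciita stood apart from the rest. Ciita rested on few reads, from 6 to 97 per library, against 242 to 1461 for Cd74. The merged exons of all annotated transcripts were 3798 bases long for H2-Aa and 1679 for Cd74, so that the values per length depend on the annotation.

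**Figure D1:**
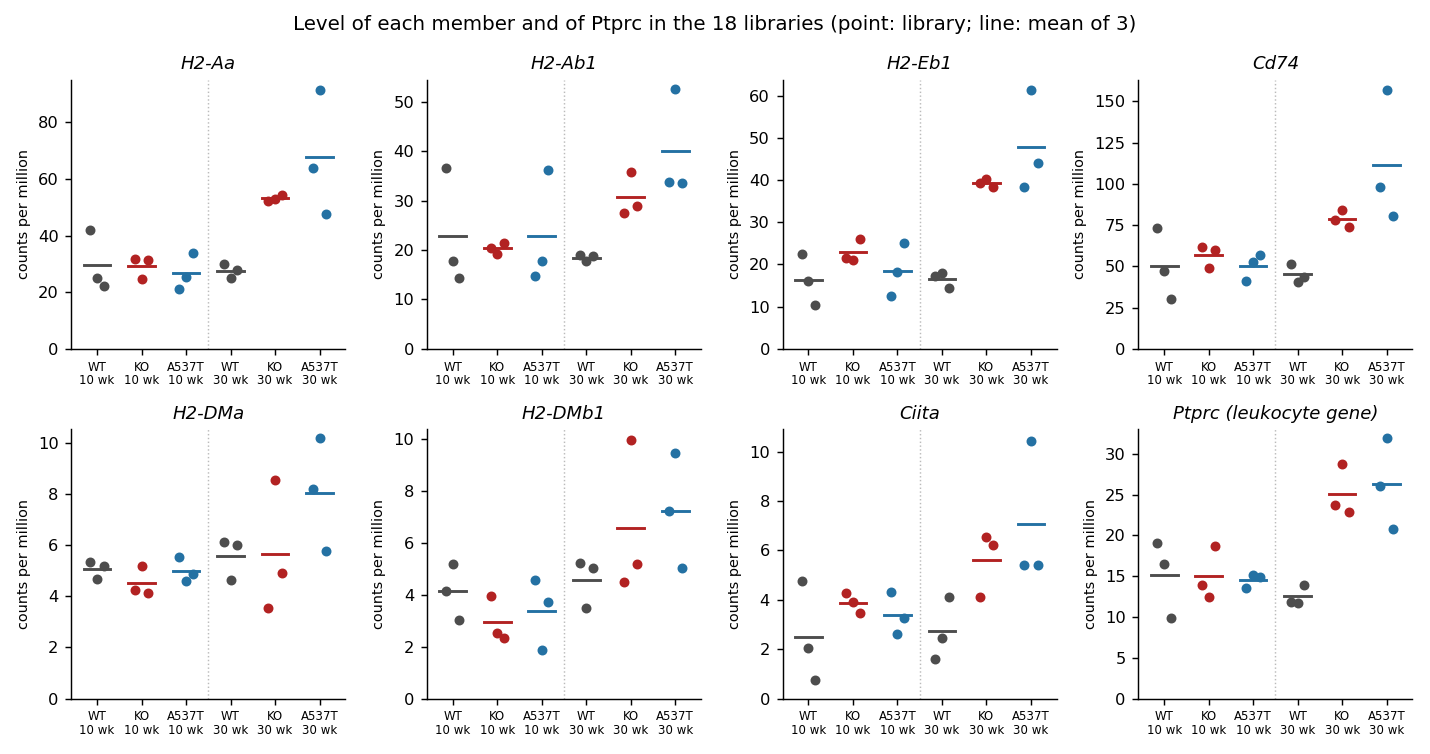
Level of each of the 7 members and of Ptprc, a gene of all leukocytes, in CPM on the common scale of the 18 libraries (vertical axes start at 0). Points are libraries and lines the means of 3; the surface chains and Cd74 are higher in every mutant library at 30 weeks than in any WT library of that age, and at 10 weeks the 3 WT libraries span most of the range of the other groups.

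At 30 weeks the 3 surface chains and Cd74 were higher in each of the 3 KO libraries than in each WT library. In bulk tissue, more cells of a type and more RNA per cell cannot be told apart. H2-Aa, the alpha chain of I-A, had normalized counts of 470, 466 and 487 in KO and of 268, 223 and 247 in WT. The KO values were nearly equal and all lay above WT, with a log2 fold change (log2 change from here on) of 0.95 ± 0.11 (SE), 1.93-fold. H2-Ab1, its beta chain partner, had 247, 314 and 259 in KO against 169, 158 and 166 in WT, a log2 change of 0.72 ± 0.13.

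H2-Eb1 showed the largest change of the set in KO. Its normalized counts were 353, 354 and 344 in KO and 154, 160 and 129 in WT, a log2 change of 1.25 ± 0.12 or 2.38-fold. H2-Eb1 encodes the beta chain of I-E. Mice of the C57BL/6 type carry a defective gene for the alpha chain of I-E, and H2-Ea-ps, as the annotation names that gene, had 0 reads in all 18 libraries, which allows up to 3 reads in each.

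Cd74 was the most abundant member, at 704, 742 and 661 in KO and 458, 362 and 389 in WT, with a log2 change of 0.81 ± 0.12. Ciita had normalized counts of 36.9, 57.3 and 55.8 in KO and of 14.5, 21.9 and 36.6 in WT, a log2 change of 1.08 ± 0.38. Its KO libraries also lay above WT, but by a margin that the lowest KO and the highest WT library nearly closed. On the common CPM scale of the 18 libraries Ciita overlapped, with the lowest KO library at 4.10 and the highest WT library at 4.12.

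The peptide-exchange chains overlapped with WT in KO. H2-DMa was at 32.0, 74.9 and 44.2 in KO and at 54.7, 41.5 and 53.5 in WT, a log2 change of -0.06 ± 0.33. H2-DMb1 was at 40.6, 87.4 and 46.5 in KO and at 46.6, 31.1 and 44.6 in WT, a log2 change of 0.44 ± 0.34. For both genes the library 5AF alone was high. These values depended on the fit. With the seminal vesicle score in it H2-DMa stood at 0.52 ± 0.34 and H2-DMb1 at 1.02 ± 0.35. With 5AF as the only KO library they stood at 0.59 ± 0.31 and 1.10 ± 0.36 on the log2 scale. Both settings lean on 5AF, the only KO library without seminal vesicle RNA. It also had the highest KO sums of pan-leukocyte (54.6 CPM) and macrophage genes (162 CPM), and these traits of 5AF cannot be told apart. The sign of H2-DMa thus turned, and H2-DMb1 came into the range of the surface chains.

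In A537T at 30 weeks, against the same 3 WT libraries, the same 5 members were higher in every mutant library. H2-Aa had 571, 822 and 424 normalized counts against 265, 221 and 245 in WT in this table, a log2 change of 1.26 ± 0.23. H2-Ab1 had 301, 471 and 300 against 174, 163 and 172, a log2 change of 1.04 ± 0.19. H2-Eb1 had 343, 549 and 392 against 154, 161 and 129, again the largest change, at 1.51 ± 0.20 on the log2 scale or 2.84-fold.

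Cd74 had 875, 1408 and 716 normalized counts in A537T and 456, 360 and 388 in WT, a log2 change of 1.26 ± 0.24. For Ciita the values were 48.2, 93.5 and 48.2 against 15.2, 21.8 and 38.6, a log2 change of 1.32 ± 0.42. The library 8AF was the highest of the A537T libraries for each of the 7 members.

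H2-DMa was at 73.3, 91.6 and 51.5 normalized counts in A537T and at 54.5, 41.3 and 52.5 in WT, a log2 change of 0.51 ± 0.26. H2-DMb1 was at 64.3, 84.8 and 44.9 against 48.1, 32.1 and 45.5, a log2 change of 0.59 ± 0.29. Both groups overlapped again, through the lowest A537T library (9AF). H2-DMb1 has a near copy next to it, H2-DMb2, and H2-Eb1 has H2-Eb2, so reads may be split between the copies. H2-DMb2 had at most 17 reads in any library and H2-Eb2 at most 9.

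Every mutant library thus exceeded every WT library for 5 of 7 members in KO, where 7.92% of 14729 genes did so, and for 5 of 7 in A537T, where the share was 9.18% of 14789. In KO these 5 include Ciita, which overlapped on the common CPM scale. No member lay wholly below WT, against 8.41% of genes in KO and 9.40% in A537T. The median log2 change of the 7 was 0.81 in KO and 1.26 in A537T, with medians over all tested genes of -0.01 in both. Since this contrast chose the members, these counts describe them and test nothing. The median in A537T was 0.99 without the library 8AF. In A537T it was 1.75 with only the mutant library that lacked seminal vesicle RNA (8AF again), and in KO 0.93 with only 5AF.

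**Figure D2:**
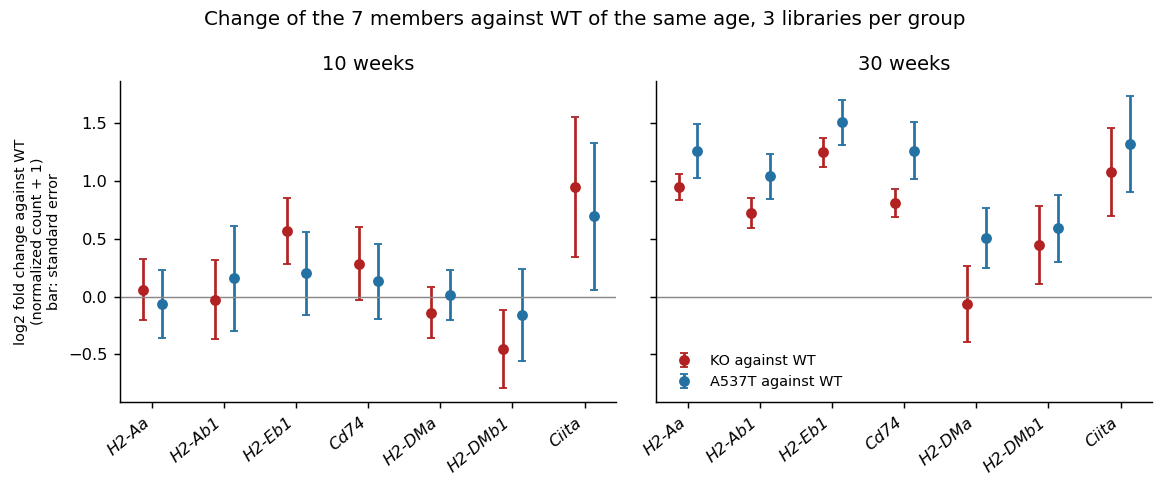
Log2 change of each member against WT of the same age (vertical axis, on the scale of normalized count + 1), for KO and A537T at 10 weeks (left) and 30 weeks (right). Points are estimates from 3 against 3 libraries and bars 1 standard error; at 30 weeks all values but that of H2-DMa in KO lie above 0, and at 10 weeks they scatter around 0 with wider bars.

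The libraries at 10 weeks were not those whose contrast chose the genes. There, none of the 7 members passed the test in KO or in A537T. H2-Aa had 264, 207 and 262 normalized counts in KO and 346, 204 and 179 in WT, a log2 change of 0.06 ± 0.26 (adjusted p = 0.911, limma). H2-Ab1 had 168, 160 and 177 in KO and 302, 146 and 115 in WT, a log2 change of -0.03 ± 0.34 (adjusted p = 0.969, limma). In both genes the KO values sat inside the span of WT, whose library 10AF was the highest and 12AF the lowest.

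H2-Eb1 had 179, 177 and 216 in KO and 186, 132 and 84.7 in WT at 10 weeks, a log2 change of 0.57 ± 0.29 with an adjusted p of 0.314 by limma. Cd74 had 511, 410 and 498 in KO and 607, 385 and 247 in WT, with 0.29 ± 0.31 and an adjusted p of 0.617 by limma. For Ciita the counts were 35.2, 32.8 and 28.6 in KO and 39.1, 16.7 and 6.12 in WT, with 0.95 ± 0.61 and an adjusted p of 0.404 by limma. These WT spreads were wide: the SD of Cd74 was 181 around a mean of 413 in WT and 55.2 around 473 in KO.

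H2-DMa at 10 weeks had a log2 change of -0.14 ± 0.22 in KO (adjusted p = 0.739, limma) and H2-DMb1 one of -0.45 ± 0.33 (adjusted p = 0.458, limma). In A537T at 10 weeks the log2 changes ran from -0.16 ± 0.40 for H2-DMb1 to 0.69 ± 0.64 for Ciita, and Cd74 stood at 355, 460 and 495 against 627, 390 and 251 in WT, a log2 change of 0.13 ± 0.32 (adjusted p = 0.940, limma). The lowest adjusted p of a member in A537T was 0.811, that of Ciita. Groups overlapped for all 7 members in both lines.

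The test called 0 of 7 members in KO, against 0.00% of 15089 genes, and 0 of 7 in A537T, against 0.00% of 15131. At an unadjusted p under 0.05, 0 members but 2930 genes were counted in KO and 973 genes in A537T. edgeR on the recovered reads also called 0 members and 0.00% of genes in each line, and DESeq2 0 members against 2.70% of genes in KO and 0.349% in A537T. By position, 0 of 7 members lay wholly above WT in KO, against 11.7% of genes, and 0 of 7 in A537T, against 5.58%. Likewise 0 lay wholly below, against 14.3% of genes in KO and 6.34% in A537T. Scaling libraries to the same total put the median log2 change of all genes at 10 weeks at 0.20 in KO and 0.15 in A537T, in place of -0.01 and 0.01, and the signs of H2-Aa, H2-Ab1 and H2-DMa, all near 0, depended on it. Adding the skeletal muscle score to the fit moved the members' median to -0.17 in KO and to -0.56 in A537T. With the pan-leukocyte score in the fit instead, 3 members passed in KO: H2-Eb1 at 0.78, Cd74 at 0.53 and Ciita at 1.36 on the log2 scale, with their adjusted p over all alternatives running from 0.0106, 0.0242 and 0.0476 up to 0.999 (limma, edgeR and DESeq2). That fit called 24.2% of all genes in KO, and in A537T it called 0 of 7 members and 2.09% of genes. Without 10AF the median was 0.38 in KO and 0.46 in A537T, and without 12AF it was -0.13 in both. WT itself differed little between the ages. On the common scale Cd74 was at 50.4 ± 21.7 CPM (SD, n = 3) in WT at 10 weeks and at 45.2 ± 5.48 at 30 weeks, and H2-Aa at 29.7 ± 10.8 and 27.6 ± 2.48.

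KO and A537T were then compared directly, after the reads of the 9 libraries of an age were put on 1 scale. At 30 weeks A537T was nominally higher than KO for all 7 members. The log2 difference, KO minus A537T, ran from -0.48 ± 0.29 for H2-DMa and -0.44 ± 0.22 for Cd74 to -0.15 ± 0.31 for H2-DMb1, and each adjusted p was 1.00 by limma. Cd74 was at 78.5 ± 4.81 CPM in KO and 111 ± 40.9 in A537T (SD, n = 3). The call was made for 0 of 7 members, against 0.00% of 15087 genes; 376 genes had an unadjusted p under 0.05, none of them a member. Without the library 8AF the median difference was -0.05, in place of -0.29. edgeR and DESeq2 also called no member, though Cd74 had an unadjusted p of 0.0491 by edgeR and 0.0352 by DESeq2. At 10 weeks the differences ran from -0.11 ± 0.30 for H2-DMb1 to 0.35 ± 0.30 for H2-Eb1, the lowest adjusted p of a member was 0.637 by limma, and 0 of 7 were called, against 1.24% of 15601 genes. None had an unadjusted p under 0.05, as 2495 genes did, and edgeR and DESeq2 called none of the 7. With the pan-leukocyte score in the fit H2-Eb1 alone passed, at 0.53 on the log2 scale (adjusted p = 0.0451, limma), in a fit that called 12.9% of all genes. These misses do not show that the lines were alike: the standard errors of the members ran up to 0.38 on the log2 scale.

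The members were not equally correlated across libraries. Over the 18 libraries the Pearson correlations of log2 levels were between 0.88 and 0.96 among H2-Aa, H2-Ab1, H2-Eb1 and Cd74, a description over libraries that share groups and scale. H2-DMa and H2-DMb1 correlated with each other at 0.77 and with these 4 genes at 0.42 to 0.70. Ciita lay between, at 0.76 to 0.83 with the 4. After the mean of each group was taken off, the correlations stayed between 0.80 and 0.93 among the 4 and fell to between 0.04 and 0.40 between them and the exchange chains. The weaker correlations were those of members with few reads per library. H2-DMa had 26 to 102, H2-DMb1 17 to 119 and Ciita 6 to 97. Counting noise can lower a correlation, and its part was not tested. Ciita followed Cd74 at 0.65 within groups, and the ratio of Ciita to Cd74 counts ran from 0.025 to 0.105, with a median of 0.063. The ratio of H2-Eb1 to H2-Ab1 was 0.615, 0.909 and 0.735 in WT at 10 weeks and 0.910, 1.01 and 0.774 in WT at 30 weeks. It was 1.43, 1.13 and 1.33 in KO and 1.14, 1.17 and 1.31 in A537T at 30 weeks, above each WT value of either age. In KO at 10 weeks it was 1.06, 1.10 and 1.22, which also exceeded each WT value, and in A537T of that age it was 0.842, 1.02 and 0.692. The other ratios of surface chains overlapped with WT at 30 weeks. H2-Eb1 to H2-Aa reached 0.716 in WT and started at 0.706 in KO and 0.600 in A537T. H2-Aa to H2-Ab1 reached 1.59 in WT and started at 1.48 in KO and 1.41 in A537T. How many other gene pairs separate from WT as H2-Eb1 and H2-Ab1 did was not tested.

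Over the 18 libraries, group differences included, the gene whose level followed the members most closely was Ptprc, the tyrosine phosphatase CD45 that marks all leukocytes. Among 15475 genes outside the set with a mean of at least 1 CPM, its correlation with the mean standardized level of the members was the highest, at 0.91. It was followed by Dock2 (0.91), which drives migration of lymphocytes, Parp14 (0.90), the class I gene H2-Q6 (0.89) and Sla (0.88), and then by Ctss (0.86), the cathepsin that trims Cd74, Aoah (0.86), Unc93b1 (0.86), C3ar1 (0.85) and Akna (0.85). With group means taken off, the 10 genes at the top were Flrt2 (0.91), Boc (0.91), Sash3 (0.87), Fat1 (0.86), Abca1 (0.85), the macrophage gene Siglec1 (0.85), Lox (0.85), Cers6 (0.85), Lbp (0.85) and Parp14 (0.84). The correlations describe 18 libraries on 1 scale and carry no test. Parp14 alone stood in both lists of 10, and Ptprc ranked 49 at 0.78 once group means were taken off.

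Ptprc itself was at 214, 252 and 205 normalized counts in KO at 30 weeks and at 106, 105 and 124 in WT, a log2 change of 0.99 ± 0.14. In A537T it was at 233, 286 and 185 against 107, 106 and 126, a log2 change of 1.03 ± 0.19. The ratio of Cd74 to Ptprc within a library was 4.31, 3.45 and 3.14 in WT, 3.29, 2.94 and 3.23 in KO and 3.75, 4.92 and 3.87 in A537T at 30 weeks, and over all 18 libraries it ran from 2.85 to 4.92. These groups overlapped, A537T with WT as well as WT with KO. The ratios of H2-Aa, H2-Eb1 and Ciita to Ptprc overlapped with WT at 30 weeks as well. That of H2-DMa lay wholly below WT (0.515, 0.396 and 0.432), at 0.149, 0.297 and 0.216 in KO and 0.315, 0.320 and 0.278 in A537T. The ratio of H2-Ab1 lay wholly below WT in KO alone, and that of H2-DMb1 in A537T alone, by a small margin.

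**Figure D3:**
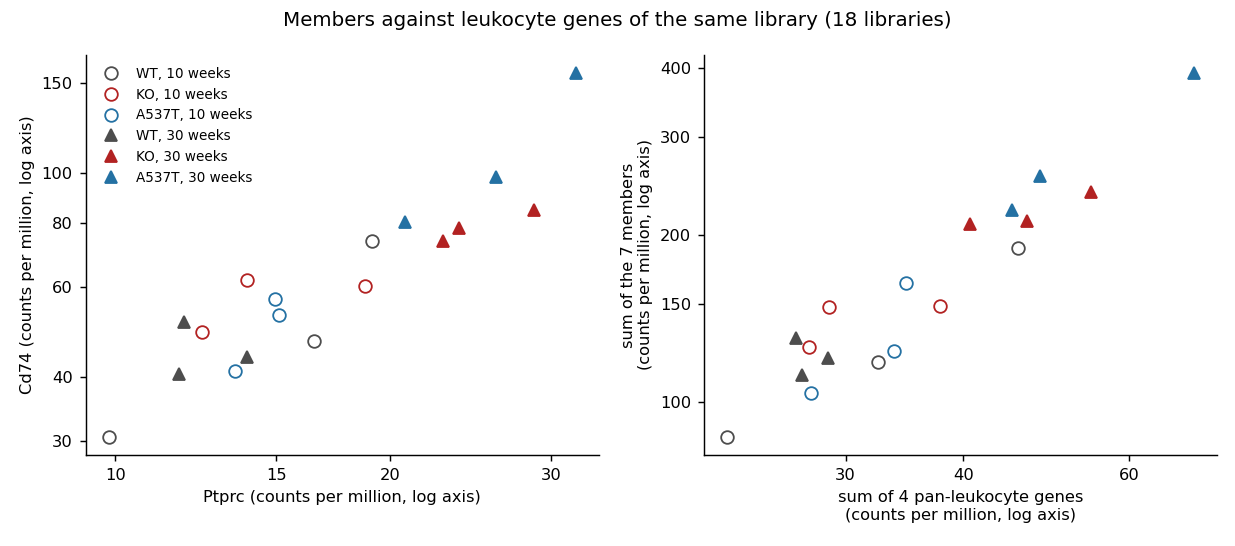
Left, Cd74 against Ptprc, and right, the sum of the 7 members against the sum of the 4 pan-leukocyte genes Ptprc, Coro1a, Cd53 and Laptm5, both axes in CPM on a log scale. Each point is 1 of the 18 libraries (open circles 10 weeks, filled triangles 30 weeks); at both ages libraries with more leukocyte transcripts tend to hold more class II transcripts, and the WT libraries of 10 weeks are spread along the same band.

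The sum of the 7 members was compared in the same way with that of the 4 pan-leukocyte genes. In the WT libraries of 30 weeks the members summed to 112 to 130 CPM. KO libraries held 209 to 239 and A537T libraries 222 to 392. For the pan-leukocyte genes the sums were 26.6 to 28.8 (WT), 40.7 to 54.6 (KO) and 45.1 to 70.3 (A537T). The ratio of the sums was 4.41 ± 0.432 in WT, 4.68 ± 0.405 in KO and 5.26 ± 0.330 in A537T (SD, n = 3). Each A537T library (5.28, 5.58 and 4.92) lay above each WT library (4.91, 4.14 and 4.17), the closest by a small margin. KO libraries, at 5.14, 4.37 and 4.53, overlapped with WT. At 10 weeks the ratio was 3.87 ± 0.255 in WT, 4.56 ± 0.602 in KO and 4.05 ± 0.574 in A537T, and both mutant lines overlapped with WT. Pan-leukocyte transcripts were higher in the same libraries as the members. With the mean log2 level of the 4 genes in the fit, a score that itself differs between the groups, the members' median at 30 weeks was 0.42 in KO and 0.32 in A537T. The members then diverged, with standard errors up to 0.73. In KO they ran from 1.33 ± 0.30 for H2-Eb1 to -1.10 ± 0.66 for H2-DMa, with H2-DMb1 at -0.43 ± 0.73 and Ciita at -0.26 ± 0.72 below 0 as well. In A537T they ran from 0.88 ± 0.34 for H2-Eb1 to -0.24 ± 0.64 for Ciita, with H2-DMa at -0.01 ± 0.54. How far leukocytes account for the members' change was not tested.

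Markers of single leukocyte types were given by whole lists. Of 8 macrophage markers, 2 lay wholly above WT in KO and 4 in A537T at 30 weeks. The share over all genes was 7.92% in KO and 9.18% in A537T. The list summed to between 108 and 126 CPM in WT, 108 to 162 in KO and 116 to 245 in A537T. C1qa, a complement subunit made by macrophages, was at 141, 241 and 176 normalized counts in KO and 265, 394 and 187 in A537T, against 150, 126 and 122 in WT. The phagocytic receptor Mertk, with a log2 change of -0.31 ± 0.14 in KO and -0.68 ± 0.30 in A537T, and the growth factor receptor Csf1r, with 0.48 ± 0.31 and 0.84 ± 0.29, were the list's other abundant genes. The libraries 5AF and 8AF were the highest of their groups for C1qa, as they were for H2-DMa and H2-DMb1.

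The 8 dendritic cell markers summed at 30 weeks to 10.2 to 12.8 CPM (WT), 12.7 to 13.5 (KO) and 11.6 to 19.1 (A537T), and none of the 3 tested lay wholly above or below WT. The most abundant were the transcription factor Zbtb46, with a log2 change of -0.30 ± 0.25 in KO and 0.20 ± 0.23 in A537T, the integrin Itgax, with 0.12 ± 0.33 and 0.28 ± 0.41, and the receptor Clec9a, with 1.15 ± 0.61 and 1.16 ± 0.54. Of all genes, 7.92% lay wholly above and 8.41% wholly below WT in KO, and 9.18% and 9.40% in A537T.

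The 6 B cell markers, among them Cd22, Ms4a1 and Pax5, were low throughout. WT libraries of 30 weeks held 1.62 to 4.46 CPM of them, KO libraries 6.28 to 14.1 and A537T libraries 4.16 to 7.41, while no library of 10 weeks held over 1.46. Cd22 was at 29.5, 22.0 and 6.98 normalized counts in KO and 2.41, 3.46 and 15.8 in WT. Plasma cell genes had unlike values in the lines. Ighm, Igkc and Jchain, the heavy, light and joining chains of antibodies, had log2 changes of 2.29 ± 0.55, 2.49 ± 0.40 and 2.16 ± 0.39 in A537T and of -0.03 ± 0.26, 0.16 ± 0.24 and -0.30 ± 0.27 in KO. The list summed to between 241 and 977 CPM in A537T libraries, 88.0 to 113 in KO libraries and 71.0 to 121 in WT libraries. The difference between the lines did not pass the test: in the direct comparison of KO with A537T at 30 weeks the lowest adjusted p of this list was 0.190 by limma.

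T cell markers (Cd4, Cd3g, Trbc2 and 4 others) summed at 30 weeks to 2.34 to 4.05 CPM (WT), 4.10 to 4.69 (KO) and 5.06 to 7.84 (A537T). NK cell markers (Nkg7, Gzma, Klrb1c and Ncr1) summed to at most 3.51 in any library. Of 5 genes of lymph node stroma and follicles, Ccl21a overlapped with WT in both lines. Cxcl13, a chemokine for B cells, was at 69.3, 103 and 44.9 normalized counts in A537T at 30 weeks against 18.5, 37.9 and 22.8 in WT, and at 13.5, 30.1 and 17.5 in KO. At 10 weeks Cxcl13 was lower in KO than in A537T (log2 difference -1.10 ± 0.21, adjusted p = 0.0478, limma), though only 2 of 12 alternatives kept that call, with adjusted p from 0.010 to 0.231. Cr2 was at 9.80 ± 4.78 CPM in KO and had 0 reads in all 3 libraries of A537T at 10 weeks, which is at least 27.4-fold higher against a floor of 3 reads per library (adjusted p = 0.0427, limma, kept by 4 of 12 alternatives). Seminal vesicle genes summed to at least 63740 CPM in these KO libraries and to at most 1975 in A537T. At 10 weeks the difference in Cr2 cannot be told apart from that content. At 30 weeks Cr2 was at 1.34 and 1.29 CPM in the mutant libraries without seminal vesicle RNA and between 12.2 and 20.8 in the other 4.

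**Figure D4:**
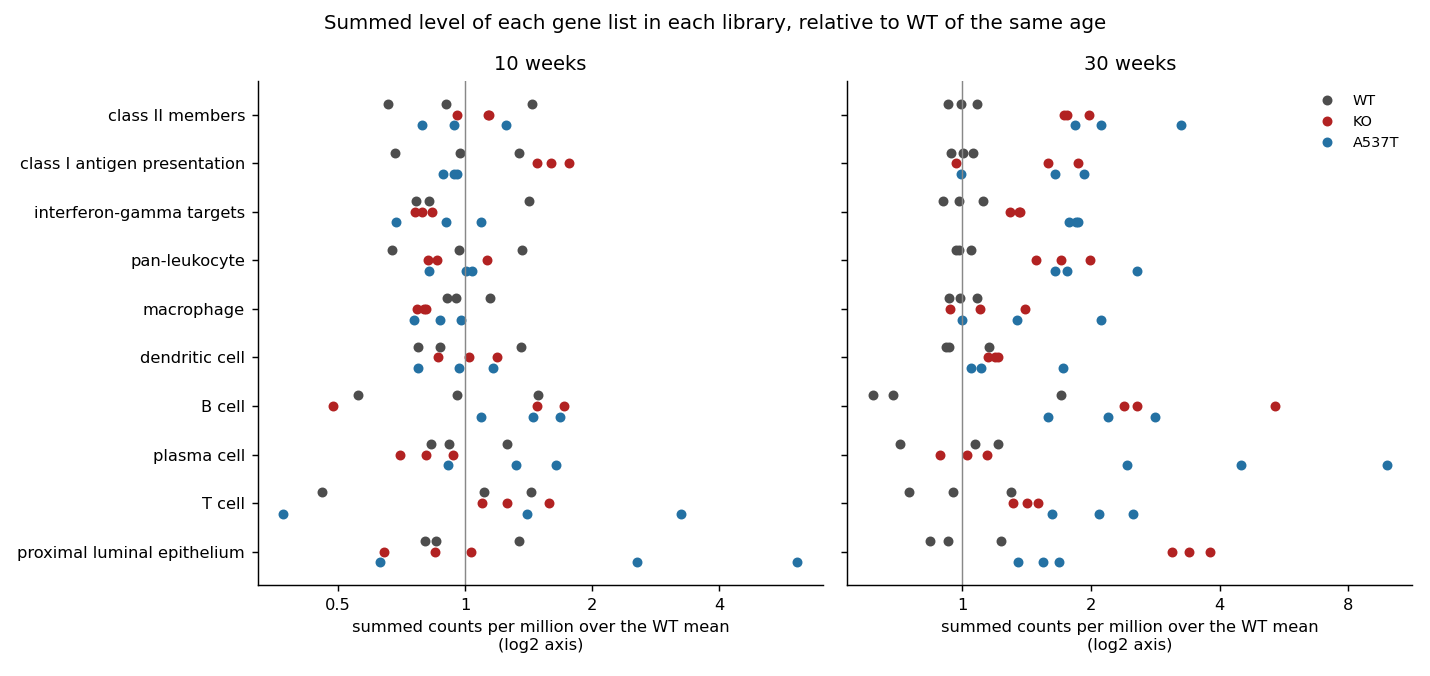
Summed CPM of the members and of 9 other gene lists in each library, divided by the mean of the 3 WT libraries of the same age (horizontal log2 axes), at 10 weeks (left) and 30 weeks (right). Points are libraries. At 30 weeks the members and the pan-leukocyte list lie above 1 in all 6 mutant libraries. The interferon-gamma target, dendritic cell, B cell, T cell and proximal luminal lists do so as well. Plasma cell genes lie above 1 in all 3 A537T libraries, and proximal luminal genes are highest in KO.

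Epithelial markers were set beside the members as well. At 30 weeks 4 luminal markers (Epcam, Krt8, Krt18 and Cdh1) summed to 1036 to 1217 CPM in WT, 832 to 1243 in KO and 900.0 to 1017 in A537T, so that A537T lay just below WT while the members' sum lay above it. In KO 4 of the 4 had log2 changes below 0, with a median of -0.14 and none wholly below WT. In A537T 4 of the 4 were below 0 as well, with a median of -0.22. The adhesion genes Epcam, at -0.33 ± 0.12, and Cdh1, at -0.30 ± 0.10, lay wholly below WT in A537T, and Cdh1 stood at -0.15 ± 0.16 in KO. Of all genes, 8.41% lay wholly below WT in KO and 9.40% in A537T. The part of these luminal markers in the members' change was not tested. All 4 markers of proximal luminal cells lay wholly above WT in KO, with Krt4 at 113, 261 and 141 normalized counts against 66.7, 39.2 and 49.5, and Psca and Ly6d as its next genes. In A537T 1 of the 4 did, Ly6d. The share over all genes was 7.92% in KO and 9.18% in A537T. Basal markers (Krt5, Trp63, Krt14) lay wholly above WT for none of 3 genes in KO and for Trp63 in A537T. At 10 weeks the A537T library 18AF had 150 CPM of proximal luminal and 208 of basal genes, the highest of all. Its 164 CPM of class II members lay within the WT span of 86.3 to 189. Relative to the pan-leukocyte genes its members stood at 4.71, above the 3.63 to 4.14 of WT. The other A537T libraries of that age, at 3.77 and 3.66, lay within that WT span. The KO libraries of that age stood at 5.15, 4.58 and 3.95, with 15.8, 20.8 and 25.4 CPM of proximal luminal genes. A ratio above WT was thus not particular to 18AF. H2-Ab1 to Ptprc was 2.42 in 18AF, the highest of the 18 libraries. The part of epithelial cells in these values was not tested.

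Of the remaining lists, prostate secretion genes (Sbp, Spink1, Pbsn) had a median log2 change of -0.74 in KO and -0.76 in A537T at 30 weeks, fibroblast genes (Col3a1, Dcn, Col1a1) 0.08 and 0.36, and endothelial genes (Pecam1, Kdr, Cdh5) 0.07 and 0.40. Seminal vesicle genes (Svs2, Svs5, Pate4) were above WT by a median of 7.11 and 7.34 on the log2 scale, through the 2 libraries of each line named above, and skeletal muscle genes (Myh4, Acta1, Atp2a1) changed by 0.11 and -2.48 at levels of at most 254 CPM in sum. The libraries 5AF and 8AF held under 1 CPM of seminal vesicle genes, and WT of 30 weeks at most 3.33. The members summed to 239 CPM in 5AF, against 209 and 212 in the other KO libraries. In 8AF they summed to 392, against 255 and 222 in the other A537T libraries. Seminal vesicle content thus differed with the line, and the part of these tissues in the members' change was not tested further.

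The factors that bind the X and Y boxes are expressed broadly. None of the 7 promoter factor genes lay wholly above WT in KO at 30 weeks and Nfya alone did in A537T, with a log2 change of 0.47 ± 0.14, and none lay below. Of all genes, 7.92% lay wholly above WT in KO and 9.18% in A537T. The list summed to between 144 and 161 CPM in WT, 152 to 159 in KO and 151 to 167 in A537T. Creb1, the most abundant, had a log2 change of 0.01 ± 0.12 in KO and -0.09 ± 0.12 in A537T, and Nfyc, the third by level, -0.10 ± 0.18 and 0.06 ± 0.16. At 10 weeks none of the 7 passed the test in either line.

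Genes that load and turn over class II were led by Sppl2a and Ctsl, which are expressed broadly. Sppl2a, an intramembrane protease that clears the last piece of Cd74, had log2 changes of -0.44 ± 0.27 in KO and -0.43 ± 0.20 in A537T at 30 weeks. Ctsl had 0.05 ± 0.24 and -0.16 ± 0.15, and the asparagine endopeptidase Lgmn 0.03 ± 0.24 and 0.09 ± 0.15. Of the 6 genes 2 lay wholly above WT in each line and none below. The share over all genes wholly above WT was 7.92% in KO and 9.18% in A537T. The other class II genes of the region had few reads. H2-Ob was at 4.92, 30.1 and 4.65 normalized counts in KO and 4.83, 1.15 and 1.98 in WT, H2-Oa at 4.92, 7.34 and 8.14 against 0, 0 and 0.990, and H2-DMb2 at 4.92, 12.5 and 12.8 against 1.61, 6.91 and 2.97. None of the 5 reached the minimum level for the fit.

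Interferon-gamma is the best known inducer of Ciita outside professional antigen-presenting cells. Ifng had 0 reads in 17 of 18 libraries and 1 read in the other, which limits any statement on the cytokine itself at this depth. Of its receptors, kinases and early factors, 2 of 6 tested genes lay wholly above WT in KO and 1 of 6 in A537T at 30 weeks. Over all genes the shares were 7.92% in KO and 9.18% in A537T. Jak2 was at 494, 397 and 488 normalized counts in KO and 341, 340 and 325 in WT, a log2 change of 0.45 ± 0.12. Jak1 had 0.07 ± 0.10 in KO and 0.03 ± 0.13 in A537T, and Ifngr1 0.04 ± 0.19 and -0.08 ± 0.19.

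Target genes of interferon-gamma were described by the same values at 30 weeks. In KO 9 of 9 tested targets had a positive fold change and 4 lay wholly above WT, with a median of 0.48 on the log2 scale. In A537T 8 of 8 were positive and 6 lay wholly above, with a median of 0.81. Over all genes 7.92% lay wholly above WT in KO and 9.18% in A537T. Irgm1, an immunity-related GTPase, was at 124, 119 and 136 normalized counts in KO and 137, 190 and 171 in A537T, against 105, 77.2 and 96.0 in WT. Irgm2 had log2 changes of 0.54 ± 0.21 in KO and 0.89 ± 0.19 in A537T, and Gbp2, a guanylate-binding protein, 0.33 ± 0.25 and 0.66 ± 0.21. Their sums at 30 weeks, 52.4 to 55.4 CPM in KO and 72.1 to 75.7 in A537T, exceeded the 36.6 to 45.4 of WT. WT at 10 weeks held 89.1 CPM in 10AF, and 48.4 and 51.7 in its other libraries. The chemokine target Cxcl11 had 0 reads in all 9 libraries of 30 weeks.

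Class I antigen presentation shows peptides from inside the cell. Of its 8 genes 3 lay wholly above WT in KO and 5 in A537T at 30 weeks, with median log2 changes of 0.26 and 0.51. Over all genes the shares wholly above WT were 7.92% and 9.18%. H2-D1, a class I heavy chain, was at 2300, 2380 and 2363 normalized counts in KO and 2043, 1857 and 1881 in WT, a log2 change of 0.29 ± 0.09, and had 0.47 ± 0.09 in A537T. H2-K1 had 0.24 ± 0.12 in both lines. B2m, the light chain, was at 13522, 3445 and 10622 in KO and 4274, 6262 and 5590 in WT, and its low library was 5AF, the one without seminal vesicle RNA. Co-stimulatory genes (Cd83, Cd86, Cd80 and Cd40) were low. Cd86 was at 22.1, 23.1 and 12.0 normalized counts in A537T at 30 weeks and at 4.81, 3.44 and 9.90 in WT, and Cd83 at 9.04, 24.1 and 13.1 against 8.82, 10.3 and 6.93. At 10 weeks no gene of these pathway lists passed the test against WT in either line.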

How the data were processed

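Per the labels and the study's methods, the authors trimmed reads with Trim Galore 0.4.1 and cutadapt 1.18, aligned them with STAR 2.7.3a to GRCm38.p6, counted genes strand-aware with Salmon, and deposited for each of 4 comparisons a table of normalized counts (unit: signal), that is, gene counts scaled with DESeq2 1.26 size factors of that table's 6 libraries. Columns of the authors' own comparisons hold moderated fold changes and s-values and were not used. The members and lists were chosen with earlier results of these data known.

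Values were analysed with limma 3.58.1 (mean trend) on log2(normalized count + 1), for genes with a mean of at least 10, with Benjamini-Hochberg adjustment over all genes, 2-sided, threshold 0.05. Fold changes are on that scale, which understates low genes. Low values were whole multiples of what 1 read is worth (at least 99.99% within 0.1 of a whole number), so reads were recovered. In 4 of 24 columns the step lay within 1.2% of 1. KO was compared with A537T on TMM-scaled CPM + 1 (mean of at least 1). A WT library's reads differed between its 2 tables for 53.6% to 64.1% of genes, and by at most 11.8% for a member. Levels over 18 libraries, ratios and list sums use CPM with TMM scaling over those 18 libraries, WT from the KO tables. edgeR 4.0.16 and DESeq2 1.42.0 were run on recovered reads as alternatives. Symbols and coordinates come from GENCODE vM21; 55107 of 55469 gene IDs matched, 54450 with their version. The limma, edgeR and DESeq2 fits were tested on simulated data. Named genes are the members, Elac2, the 3 genes of each list with the highest mean, those past the threshold in a comparison whose p is given, and the 10 most like the members; others named (Cxcl11, Ncr1, Cd40, H2-Ea-ps, H2-Eb2) were chosen after their values were seen. Luminal epithelium is described by 4 genes of its list; the list as a whole is not reported here. Limits of a count of 0 cover counting error only.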

Additional observations from a re-analysis of the deposited data

How the results depend on the processing

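No paired analysis was possible because the columns of the tables carry no replicate number. Each library was left out in turn, and other scalings, filters, pseudocounts and tests were tried. A run without the mutant libraries holding seminal vesicle RNA was chosen after seeing the data and leaves 1 mutant library, assumed to vary like the others. A minimum mean of 100 leaves 4 members. The cause of each shift was not tested. DESeq2 called 698, 90, 276 and 460 genes in KO and A537T against WT at 10 weeks and then at 30 weeks, where limma called 0 in each, and 735 against 193 and 32 against 0 in KO against A537T at 10 and 30 weeks.

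With the leukocyte score as covariate, 3 members were called in KO at 10 weeks, where 24.2% of all genes were, and 1 in KO against A537T at 10 weeks, where 12.9% were. The median at 30 weeks was 0.42 in KO and 0.32 in A537T, and signs turned for H2-Ab1 in KO at 10 weeks (0.22) and against A537T (0.16), and for H2-DMb1 (0.0752) and Ciita (0.0556) in KO against A537T at 30 weeks. Against WT at 30 weeks signs turned in KO for H2-DMb1 (-0.43) and Ciita (-0.26), and in A537T for H2-DMa (-0.01) and Ciita (-0.24). With the skeletal muscle score, the median in A537T at 10 weeks was -0.56, with H2-Ab1 at -0.90, H2-Eb1 at -0.62, Cd74 at -0.56 and Ciita at -0.28, and in KO H2-Aa was at -0.37, Cd74 at -0.17 and H2-DMa at 0.11. The A537T median at 30 weeks was 1.70 with the seminal vesicle score and 1.75 without the libraries holding seminal vesicle RNA. Scaling to the same total turned H2-Ab1 (0.18) and H2-DMa (0.0667) in KO and H2-Aa (0.0761) in A537T at 10 weeks, quantile normalization H2-Ab1 in KO (0.0223) and H2-DMa in A537T (-0.0314), and no TMM H2-Ab1 in KO against A537T at 10 weeks (0.00633).

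Leaving out single libraries at 10 weeks gave ranges across 0 in KO for H2-Aa (-0.13 to 0.35), H2-Ab1 (-0.32 to 0.38) and Cd74 (-0.0368 to 0.61). In A537T they did so for H2-Aa (-0.26 to 0.23), H2-Ab1 (-0.23 to 0.57), H2-Eb1 (-0.0927 to 0.47), Cd74 (-0.19 to 0.46), H2-DMa (-0.0590 to 0.0706) and H2-DMb1 (-0.41 to 0.20). In KO against A537T the ranges were -0.31 to 0.32 for H2-Ab1 and -0.38 to 0.0848 for H2-DMb1 at 10 weeks, and -0.44 to 0.0432 for H2-DMb1 and -0.39 to 0.0360 for Ciita at 30 weeks. No member was called at 10 weeks, or in KO against A537T, without any 1 library, while the share of all genes called reached 19.2% in KO without 10AF, 0.333% in A537T without 10AF and 1.42% in KO against A537T without 14AF. H2-DMa in KO at 30 weeks, near 0, ranged from -0.39 to 0.21, and was 0.52 with the seminal vesicle score.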
